A study of Rattus norvegicus with 12 samples.

Results

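Liver transcripts of germ-free Sprague-Dawley rats, animals raised without any microbes, were compared with those of conventional Sprague-Dawley rats, which carry a normal flora. The comparison takes every liver array labelled as germ-free or as normal and not germ-free, which gave 6 of the 12 animals in the series: germ-free animals 1, 3 and 4 and conventional animals 6, 7 and 8, with 1 array each. No treatment is given for either group. The other 6 animals were Han Wistar rats, 3 untreated and 3 given streptomycin and penicillin in drinking water for 8 days, and they are used here to ask whether a germ-free difference differs from the antibiotic difference and, in the test of the germ-free difference, to help estimate the spread between animals. For the Sprague-Dawley groups the sources used here do not give diet, age, sex, colony or the hour of sampling. Any of these that differed between the groups cannot be told apart from the germ-free state. The p-values of the germ-free difference rest on a spread between animals pooled within groups over all 12 animals, 3 in each group.

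The liver receives blood from the gut through the portal vein, and with it nutrients, bile acids and products of microbes. Hepatocytes, its main cells, make and break down amino acids, make most plasma proteins and detoxify foreign compounds, while sinusoidal endothelial cells and Kupffer cells, the resident macrophages, line the blood spaces and clear particles. Germ-free animals are used to ask which of these activities differ when no microbes are present. Genes of cholesterol synthesis, of PPAR-alpha and fatty acid oxidation, of the circadian clock and of the interferon response were set aside, and the results below concern the other genes.

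Values are deposited signal intensities, 1 per probe set and array, and differences are on the log2(signal + 16) scale, which understates the change of dim genes. Of 9300 genes tested with limma on all 12 arrays, 1226 passed (13.2%, adjusted p under 0.05 by Benjamini-Hochberg), 599 higher in germ-free liver (6.44%) and 627 lower (6.74%). Of these, 229 differed over 2-fold. On the 6 Sprague-Dawley arrays alone 849 genes passed. The 3 germ-free and 3 conventional values did not overlap for 2782 genes (29.9%). Centring each array on its median, which shifts the median difference over all genes by -0.11, gave 379 higher and 1122 lower, so the balance of directions over all genes is not settled. The 4 lists set aside held 69 of the 1226 genes, 193 were among the 849 tested members of the 47 lists described here, and 964 were in no list. Each count of calls in a list is to be read against the 13.2% called over all genes. The lists and their members were chosen with earlier results of these data known, so their counts and medians are description and no test. Without germ-free animal 3 the number that passed was 654, of which 643 were among the 1226. The 3' to 5' signal ratio of the actin control, which rises as RNA degrades, averaged 4.39 ± 0.762 (SD, n = 3) over the germ-free arrays and 5.37 ± 0.839 over the conventional ones (two-sided exact permutation p = 0.2, the smallest possible being 0.1), and with it as a covariate 606 genes passed. The Gapdh ratio was 1.52 ± 0.286 and 1.63 ± 0.164 (exact p = 0.6). As a check of the labelled tissue, each of the 9 hepatocyte markers tested, albumin among them, had a signal of at least 2730 in every Sprague-Dawley animal.

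**Figure D1:**
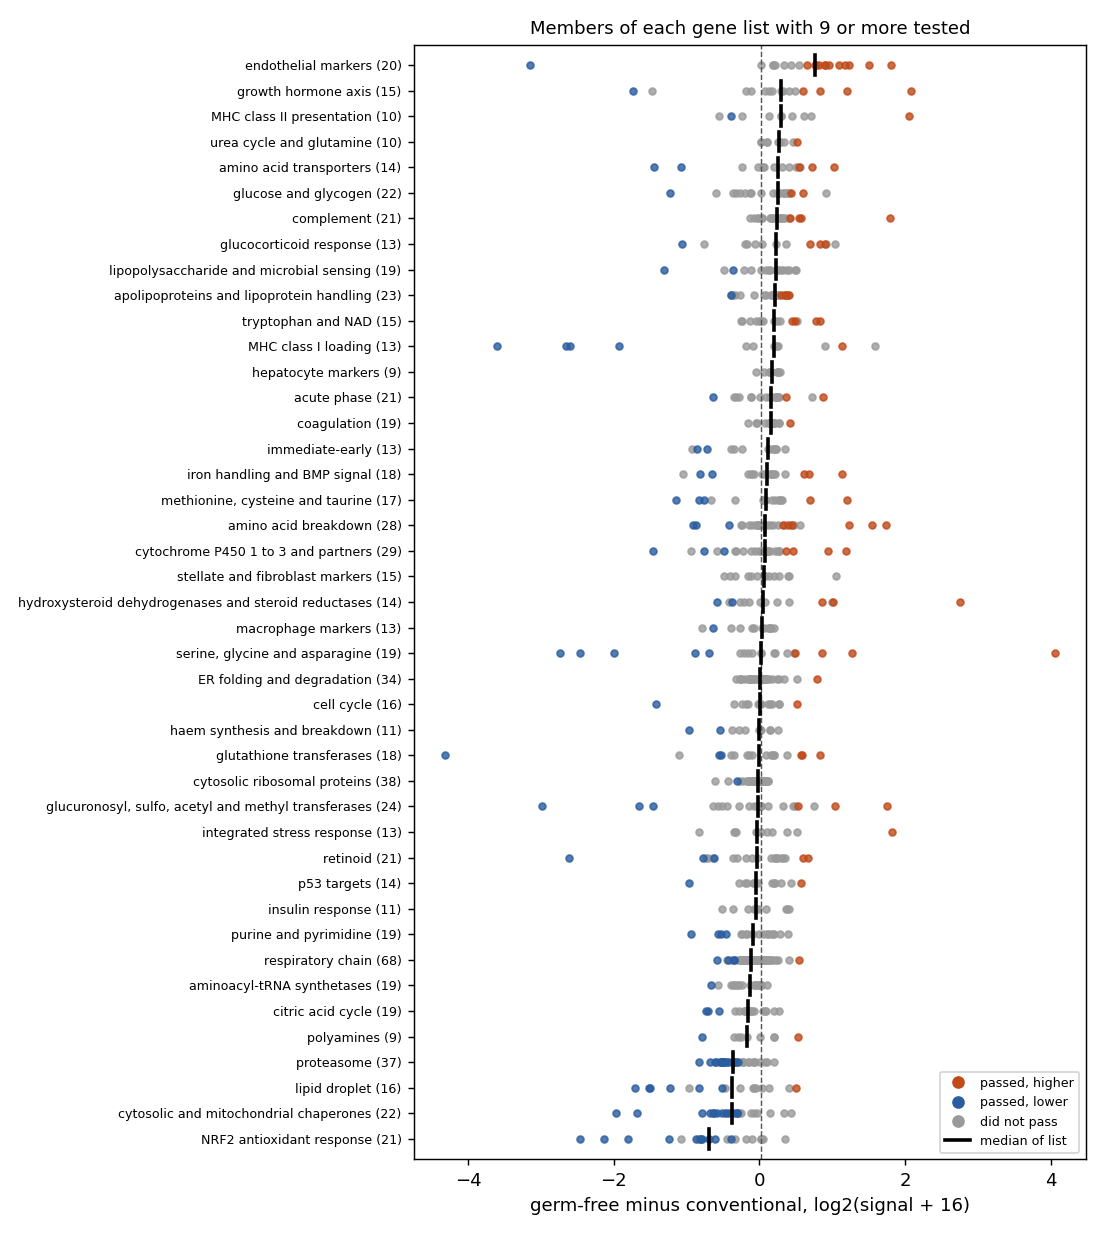
Each point is a gene, placed by its germ-free minus conventional difference on the log2(signal + 16) scale, for the 43 lists with 9 or more genes tested (number in brackets). Red and blue points passed limma's test, the black bar is the list's median, and the dashed line is the median of all 9300 genes (0.03). NRF2, chaperone, lipid droplet and proteasome genes lie to the left and endothelial markers to the right.

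Many proteasome and chaperone genes were lower in germ-free liver. The proteasome is the barrel-shaped protease that degrades ubiquitin-tagged proteins, with a core of alpha and beta subunits (Psma, Psmb) and a regulatory cap that holds ATPases (Psmc) and other subunits (Psmd). All 37 subunit and regulator genes on the array passed the signal filter. Of these, 20 fell, 17 did not pass and 0 rose, and the median difference was -0.36, against 0.03 over all genes. The ATPase gene Psmc3 had signals of 466.4, 406.0 and 427.6 in germ-free and 759.3, 796.3 and 796.5 in conventional livers (log2 -0.83 ± 0.09 SE, adjusted p = 0.000104). Every germ-free value lay below every conventional one, and the spread within each group was small. The ATPase gene Psmc1 read 391.0, 345.7 and 362.6 against 540.1, 571.2 and 692.0 (-0.68 ± 0.11, adjusted p = 0.00158). Psmd4, a receptor for ubiquitin chains, read 302.6, 286.7 and 294.2 against 491.6, 441.0 and 445.9 (-0.61 ± 0.09, adjusted p = 0.000706). Psma4, of the outer ring of the core, read 547.8, 534.7 and 539.3 against 792.9, 828.8 and 742.8 (-0.53 ± 0.09, adjusted p = 0.00124). Each of these 4 genes was separated between the groups, which follows largely from their choice by smallest p. Over all 37 genes the groups did not overlap for 26 lower and 1 higher, against 29.9% of all genes in either direction. Psme1, a subunit of the interferon-induced activator named after its value was seen, did not pass (0.10 ± 0.10).

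The fall was similar in each germ-free animal. Taking each animal's log2 value minus the conventional mean, the median over the 37 genes was -0.36, -0.39 and -0.33 in germ-free animals 1, 3 and 4 and 0.01, -0.02 and 0.02 in conventional animals 6, 7 and 8. The median kept its sign under every alternative (-0.47 to -0.29). The count was 13 without germ-free animal 3, 13 without conventional animal 7 and 11 with the actin ratio as covariate. In the antibiotic comparison the median of the same genes was 0.03, and the difference between the comparisons passed for 8 of the 37, against 5.94% of all genes.

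Chaperones, which fold new or damaged proteins, were also often lower. Of 24 cytosolic and mitochondrial chaperone and heat shock genes on the array, 22 passed the signal filter, and 13 of those fell, 9 did not pass and 0 rose (median -0.38). Hsph1, a nucleotide exchange factor for heat shock protein 70, had signals of 970.1, 762.3 and 803.8 in germ-free and 1441.0, 1453.6 and 1183.6 in conventional livers (-0.68 ± 0.11, adjusted p = 0.00127). Ahsa1, an activator of heat shock protein 90, read 494.5, 463.8 and 358.2 against 705.2, 764.2 and 598.6 (-0.64 ± 0.13, adjusted p = 0.00584). The small heat shock protein gene Hspb1 read 53.3, 37.8 and 36.5 against 237.1, 238.6 and 83.9 (-1.68 ± 0.32, adjusted p = 0.00367). Conventional animal 8 was the lowest of its group for all 3 of these genes. Their groups did not overlap, which follows largely from their choice by smallest p. Over the 22 genes this held for 15 lower and 1 higher, against 29.9% of all genes in either direction. The median over the 22 genes was -0.38, -0.35 and -0.31 in germ-free animals 1, 3 and 4 and 0.17, 0.06 and -0.18 in conventional animals 6, 7 and 8. The count of genes that fell was 6 without germ-free animal 3, 7 without conventional animal 6, 7 without conventional animal 7 (with 1 higher), 7 with the actin ratio as covariate and 6 in total on the 6 Sprague-Dawley arrays alone, with the median at -0.33 to -0.49 under all alternatives. In the antibiotic comparison the median was 0.17, and the difference passed for 10 of the 22.

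Of 34 genes of folding and degradation in the endoplasmic reticulum, 1 rose, 0 fell and 33 did not pass (median 0.01). The one that rose, Herpud1, of the degradation machinery, read 1293.3, 1578.4 and 1418.8 against 647.7, 922.1 and 926.8 (0.78 ± 0.22, adjusted p = 0.0323). Herpud1 no longer passed when germ-free animal 3 (adjusted p = 0.119), germ-free animal 4 (0.0756) or conventional animal 6 (0.11) was left out, nor with median centring (0.0529), no filter (0.0518) or the actin covariate (0.0876). Leaving out germ-free animal 1 gave 2 calls in this list. Of 38 cytosolic ribosomal protein genes 1 fell and 37 did not pass (median -0.01). The fall of Rpl4, a protein of the large subunit, was -0.31 ± 0.09 (adjusted p = 0.0326) and did not pass when germ-free animal 3 (0.143), conventional animal 6 (0.0825) or conventional animal 8 (0.0913) was left out.

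**Figure D2:**
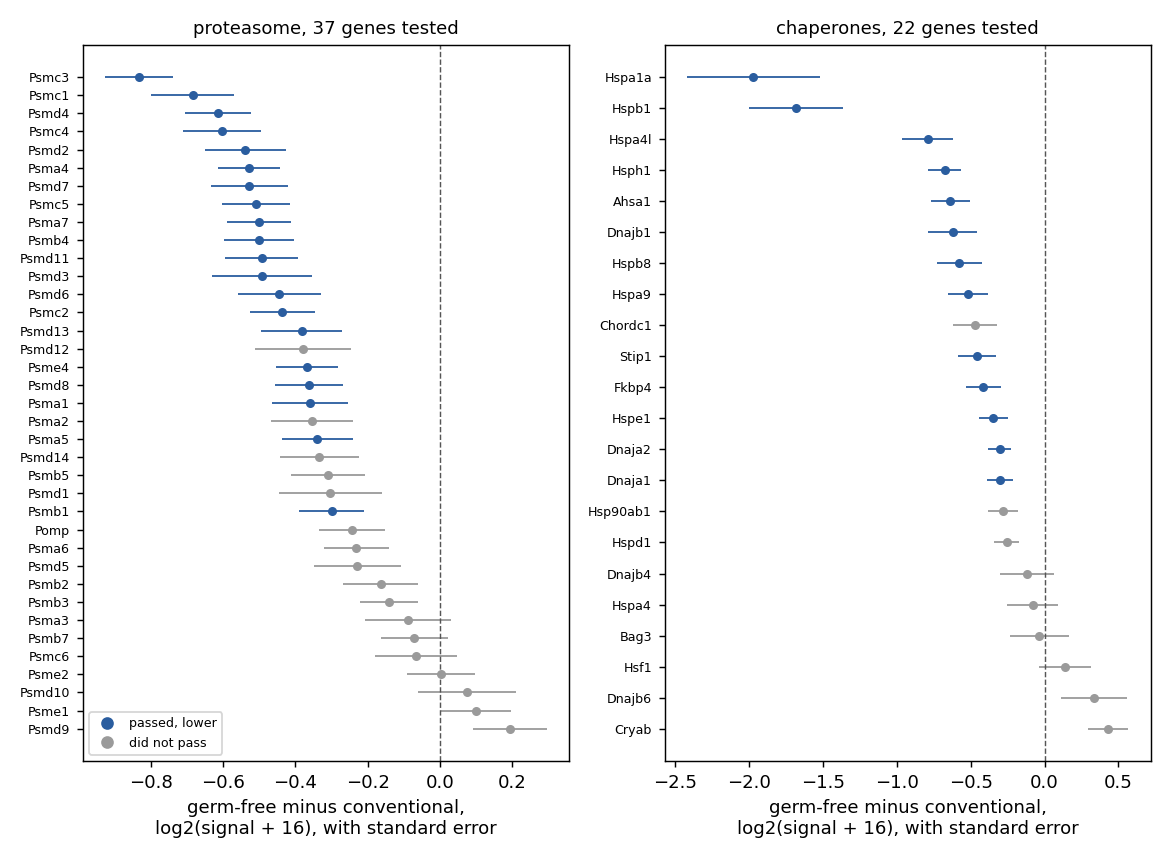
Germ-free minus conventional difference of each proteasome gene (left, 37) and each cytosolic or mitochondrial chaperone gene (right, 22) tested, on the log2(signal + 16) scale. Bars are the standard error from limma (3 against 3 animals, with the spread pooled over all 12 arrays). Blue points passed and all lie below 0, and grey points did not pass.

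Heat shock genes are classically driven by heat shock factors, which bind inverted repeats of nGAAn called heat shock elements. RefSeq gives a start for 18 of the 22 chaperone genes (window of 250 bases before to 50 after the start, build GRCr8). The 13-letter form GAANNTTCNNGAA, sought on both strands, was present in 5 of the 18 (27.8%: Chordc1, Dnaja1, Hspd1, Hspe1 and Hsph1), against 0.51% of the 7850 tested genes with a window and 0.794% of all 27457 genes. It was in 0 of 26 windows of the endoplasmic reticulum list. Of the 5 genes, Dnaja1, Hspe1 and Hsph1 fell. Hspe1, the mitochondrial chaperonin 10, read 2193.6, 2545.2 and 2868.9 against 3304.6, 3019.5 and 3316.2 (-0.35 ± 0.10, adjusted p = 0.0343), a small difference that did not pass under 8 of 24 alternatives, among them leaving out germ-free animals 1 (0.104) or 3 (0.0915) or conventional animals 6 (0.0828) or 8 (0.0883). Dnaja1, a co-chaperone of heat shock protein 70, differed by -0.30 and did not pass with germ-free animals 3 (0.13) or 4 (0.0716) or conventional animals 7 (0.109) or 8 (0.0729) left out. Hsph1 passed under every alternative run. Hspd1, chaperonin 60, lies head to head with Hspe1 and holds the same elements on the other strand, and it did not pass: -0.26 ± 0.09 (adjusted p = 0.0624). The 250 bases before the start are shown for the 2 genes that fell and hold the element there, Hsph1 at chr12:10427118-10427367 and Hspe1 at chr9:64084077-64084326, both on the plus strand, with the elements in capitals. In Hspe1 they overlap to form 1 longer run.
Hsph1: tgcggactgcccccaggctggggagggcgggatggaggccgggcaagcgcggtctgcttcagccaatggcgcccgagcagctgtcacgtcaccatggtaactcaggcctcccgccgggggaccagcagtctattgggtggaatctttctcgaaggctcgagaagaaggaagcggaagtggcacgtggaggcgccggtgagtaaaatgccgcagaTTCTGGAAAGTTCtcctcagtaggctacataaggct
Hspe1: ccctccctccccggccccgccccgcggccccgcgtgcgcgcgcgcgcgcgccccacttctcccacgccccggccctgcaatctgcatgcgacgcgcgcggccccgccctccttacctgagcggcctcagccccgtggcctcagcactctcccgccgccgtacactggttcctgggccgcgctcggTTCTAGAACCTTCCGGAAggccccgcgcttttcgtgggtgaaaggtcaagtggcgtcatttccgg
Whether these letters are bound in these livers was not measured.

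Antioxidant genes had the lowest median of the 47 lists described. NRF2 is a transcription factor that switches on enzymes of glutathione, NADPH and quinone handling under oxidative or electrophilic stress. Of 23 target genes on the array 21 passed the signal filter, and 11 of those fell, 10 did not pass and 0 rose (median -0.697). Akr7a3, the aflatoxin aldehyde reductase, read 160.7, 157.7 and 81.7 in germ-free and 1123.0, 598.4 and 696.6 in conventional livers (-2.46 ± 0.26, adjusted p = 5.7e-05). Me1, malic enzyme, which makes NADPH, read 89.2, 129.4 and 96.6 against 662.7, 436.5 and 461.8 (-2.14 ± 0.24, adjusted p = 0.000104). Srxn1, sulfiredoxin, which repairs oxidised peroxiredoxins, read 97.3, 57.8 and 51.5 against 387.3, 272.1 and 191.7 (-1.81 ± 0.24, adjusted p = 0.000283), and its other probe set gave -0.65. The germ-free values of all 3 genes lay below the conventional ones, and conventional animal 6 was the highest of its group each time. These genes were chosen by smallest p. Over the 21 genes the groups did not overlap for 14 lower and 1 higher, against 29.9% of all genes in either direction. Pgd, of the pentose phosphate pathway, read 129.3, 156.0 and 133.4 against 241.6, 284.9 and 279.2 (-0.87 ± 0.12, adjusted p = 0.000333). Nqo1, the quinone reductase often used as a marker of NRF2 activity, did not pass: 234.6, 314.1 and 299.6 against 915.7, 394.7 and 379.4 (-0.84 ± 0.49, adjusted p = 0.28), named after its value was seen. Its conventional spread rests on animal 6.

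The median of the list without conventional animal 6 was -0.56, with 9 genes lower and 0 higher, and over all alternatives it lay between -0.83 and -0.56. In the antibiotic comparison it was -0.09, and the difference passed for 5 of the 21. The antioxidant response element in its core form TGACNNNGC, sought on both strands, is common: 15.4% of tested genes and 13.1% of all genes with a RefSeq window hold it. It was found for 7 of 19 NRF2 list genes with a window (36.8%), of which Ephx1, Me1, Txnrd1 and Ugdh fell, and for 7 of 33 proteasome genes (21.2%), 2 of which fell. Ephx1, microsomal epoxide hydrolase, read 1588.3, 1894.6 and 1858.1 against 3233.6, 2684.3 and 3311.0 (-0.78 ± 0.16, adjusted p = 0.00585). The call of Ugdh (adjusted p = 0.0426) was lost under 15 of 24 alternatives, among them leaving out germ-free animals 3 (0.0623) or 4 (0.161), conventional animals 6 (0.0935), 7 (0.0556) or 8 (0.109), untreated animals 1 (0.0503) or 3 (0.0517) or antibiotic animals 13 (0.0537) or 15 (0.053). All 4 hold the element before the start. Me1, at chr8:96540245-96540494 on the minus strand, and Ephx1, at chr13:95263118-95263367 on the minus strand from 1 of its 2 starts, are printed from RefSeq (GRCr8) as examples of the 4, with the element in capitals.
Me1: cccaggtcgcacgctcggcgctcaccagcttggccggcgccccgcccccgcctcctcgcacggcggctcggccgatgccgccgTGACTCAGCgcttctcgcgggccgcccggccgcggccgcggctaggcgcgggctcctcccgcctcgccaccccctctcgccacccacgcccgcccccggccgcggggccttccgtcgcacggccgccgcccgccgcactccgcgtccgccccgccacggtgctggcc
Ephx1: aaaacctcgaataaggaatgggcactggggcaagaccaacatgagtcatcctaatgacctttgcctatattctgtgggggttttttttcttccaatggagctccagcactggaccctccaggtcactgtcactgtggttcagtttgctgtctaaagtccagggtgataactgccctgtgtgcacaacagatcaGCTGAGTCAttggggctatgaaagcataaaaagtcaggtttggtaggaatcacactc
Txnrd1 read 499.0, 329.2 and 324.3 against 801.4, 570.2 and 650.5 (-0.80 ± 0.16, adjusted p = 0.00534), and its other probe set gave -0.18. The Me1 difference was 4.4-fold on this scale, its other probe set gave -2.57, and Txnrd1 differed by 1.74-fold.

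Phgdh, Psat1 and Asns, which make serine and asparagine, fell, while Sds, which breaks serine down, rose. The serine, glycine and asparagine list as a whole had a median of 0.02, with 4 of 19 higher, 5 lower and 10 not passing. Phgdh, Psat1 and Psph are the consecutive enzymes of serine synthesis from glucose. Phgdh read 0.9, 10.8 and 6.9 in germ-free and 244.8, 94.0 and 92.5 in conventional livers (-2.74 ± 0.28, adjusted p = 5.62e-05). Psat1 read 12, 12.1 and 21.9 against 237.3, 75.1 and 66.9 (-2.00 ± 0.32, adjusted p = 0.00124). Psph, the last enzyme, read 76.7, 70.6 and 79.6 against 93.7, 75.2 and 57.1 (0.02 ± 0.15, adjusted p = 0.943), so the 3 steps did not move together. Asns, asparagine synthetase, read 14.9, 9.0 and 16 against 312.1, 95.2 and 96.5 (-2.46 ± 0.32, adjusted p = 0.000273). The germ-free values of Phgdh, Asns and most of Psat1 lay under the filter value of 19.67, where a signal is little more than background, so the size depends on the offset: between offsets of 1 and 64 Phgdh ran from -4.53 to -1.49, Asns from -3.36 to -1.46 and Psat1 from -2.77 to -1.16. The untreated and antibiotic means of Asns (16.9 and 13.57) lay under the filter value too. Asns thus passed the filter only through the conventional group. All 3 genes kept their calls under the 23 alternatives in which they were tested. These included leaving out conventional animal 6, the highest of its group for each.

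Several enzymes of breakdown were higher. Sds, serine dehydratase, which turns serine into pyruvate, read 2848.8, 3484.9 and 3101.4 against 102.8, 188.9 and 264.3 (4.05 ± 0.47, adjusted p = 0.000125), a 16.6-fold difference and the second largest rise of any named gene. Gldc, of the glycine cleavage system and named after its value was seen, read 303.1, 508.7 and 522.6 against 175.5, 137.8 and 204.1 (1.27 ± 0.20, adjusted p = 0.00106). Dmgdh, which makes sarcosine from dimethylglycine, read 1608.8, 1786.6 and 1996.5 against 1092.4, 988.5 and 873.8 (0.86 ± 0.11, adjusted p = 0.000235). Aldh1l1, which releases one-carbon units from folate as CO2, fell: 1013.2, 1029.3 and 860.3 against 1867.2, 1633.8 and 1893.8 (-0.88 ± 0.11, adjusted p = 0.00024). The groups did not overlap for any of these 4 genes, which were chosen by small p or after their values were seen. Over the 19 genes of the list this held for 6 higher and 5 lower, against 29.9% of all genes in either direction. In the amino acid breakdown list of 28 genes 6 were higher, 3 lower and 19 not past the test (median 0.08), and with the actin covariate 5 passed. Tat, tyrosine aminotransferase, read 2240.9, 2501.5 and 2593.6 against 723.1, 650.1 and 794.4 (1.74 ± 0.14, adjusted p = 7.75e-06). Klf15, a transcription factor known to switch on amino acid breakdown, read 1311.6, 1456.5 and 1359.9 against 338.1, 488.2 and 587.3 (1.55 ± 0.21, adjusted p = 0.000301). Hal, histidine ammonia-lyase, read 1683.5, 1754.5 and 1891.5 against 531.8, 739.0 and 1063.6 (1.23 ± 0.20, adjusted p = 0.00147). Of the branched-chain pathway, Hibch, the valine-pathway hydrolase, fell, from 586.2, 590.3 and 683.8 to 341.3, 344.3 and 284.6 (-0.91 ± 0.13, adjusted p = 0.000616).

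Among 14 amino acid transporters tested (9 more on the array lay under the filter), 3 rose and 2 fell (35.7% called, against 13.2% of all genes, median 0.25). Slc3a2, the heavy chain shared by several amino acid exchangers and often co-induced with Asns under amino acid shortage, read 289.9, 296.3 and 293.2 against 1232.2, 652.0 and 703.1 (-1.45 ± 0.18, adjusted p = 0.000234). Slc6a13, a taurine and GABA carrier, fell by 1.07 ± 0.12, and Slc38a4, of the system A carriers, rose by 0.54 ± 0.10. Of 13 tested genes of the integrated stress response, which ATF4 drives when amino acids are short, 1 rose, 0 fell and 12 did not pass (median -0.03). The one that rose, Sesn2, a sensor of leucine, read 388.1, 366.0 and 465.9 against 84.6, 107.7 and 121.6 (1.81 ± 0.14, adjusted p = 5.79e-06), a direction opposite to that of Asns, Psat1 and Phgdh. Trib3, another known ATF4 target, did not pass (174.3, 66.3 and 70.8 against 385.6, 107.5 and 136.8; -0.83 ± 0.39, adjusted p = 0.186). Of 19 aminoacyl-tRNA synthetases 1 fell (median -0.13). That was Gars1 (-0.67 ± 0.12, adjusted p = 0.00242), whose other probe set gave 0.12, and with the mean of the probe sets its adjusted p was 0.224. With median centring 5 synthetases fell, and without conventional animal 8 there were 3. Without germ-free animal 1 a second stress response gene passed, lower. The ATF4 element TGATGNAA, sought on both strands, is in 2.1% of tested genes' windows. It was in 7 of 17 synthetases and 3 of 11 stress response genes with a window. For the serine list it was in 0 of the 14 genes with a window, out of 19 tested. Sites outside the windows were not sought.

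**Figure D3:**
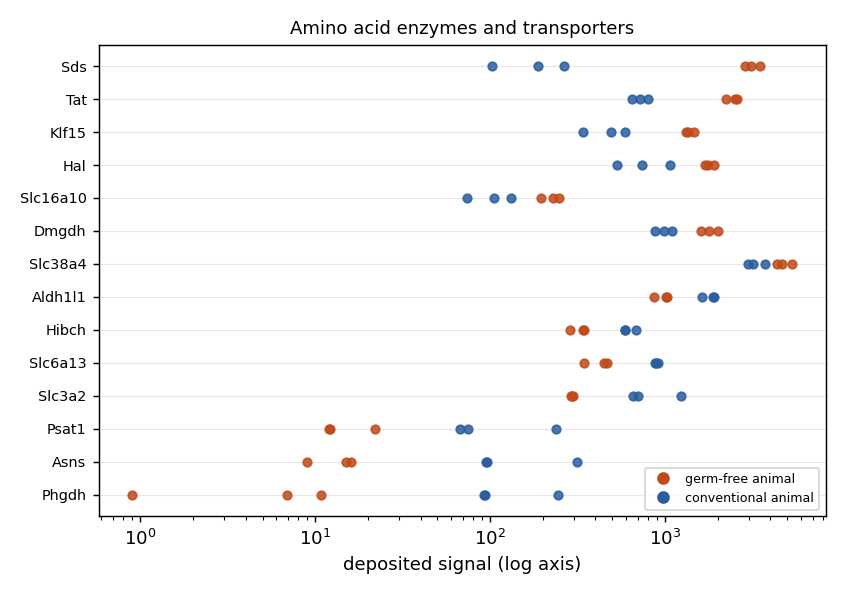
Deposited signal of amino acid enzymes and transporters in each animal, on a log axis, with red points for germ-free and blue for conventional livers. Breakdown genes Sds, Tat, Klf15 and Hal are higher in every germ-free animal, and Phgdh, Psat1 and Asns are lower, the latter 3 with conventional animal 6 highest.

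All 10 genes of the urea cycle and glutamine list had positive differences (median 0.27), but 1 passed, and it is not a urea cycle enzyme. Gls2, liver glutaminase, read 2294.3, 2292.2 and 2363.7 against 1454.6, 1586.8 and 1827.8 (0.52 ± 0.12, adjusted p = 0.0132), a call lost with median centring (0.0515) and with the actin covariate (0.0674). The urea cycle genes Ass1 (adjusted p = 0.0517 by limma) and Cps1 (0.061) did not pass. Without germ-free animal 1 there were 4 calls in that list and without conventional animal 8 there were 2. Of 15 genes of tryptophan and NAD handling 4 rose and 0 fell (26.7% called; median 0.20), with 2 calls left without conventional animal 7 and 2 with the actin covariate. Kmo, kynurenine monooxygenase, read 1021.0, 859.4 and 902.1 against 411.7, 544.7 and 673.5 (0.78 ± 0.15, adjusted p = 0.00418). Tdo2, which opens the tryptophan ring, rose by 0.49 ± 0.11 (adjusted p = 0.00807), a call lost with quantile normalization (0.0661). Of 17 sulphur amino acid genes 2 rose and 3 fell (29.4% called): Ethe1, of sulphide oxidation, read 1043.6, 1168.0 and 1306.8 against 473.8, 468.9 and 558.2 (1.20 ± 0.13, adjusted p = 9.55e-05), while Mat2a, a methionine adenosyltransferase, read -0.82 ± 0.15 (adjusted p = 0.00284), though its other probe set gave -0.23.

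Among the genes of energy metabolism, several lipid droplet genes were lower. Among 16 tested (4 more under the filter) there were 6 lower and 1 higher, and 9 did not pass (median -0.37, and -0.09 with no filter). That is 43.8% called, against 13.2% of all genes. Plin5, a droplet coat protein that joins droplets to mitochondria, read 31.5, 22.9 and 14.4 against 94.5, 90.2 and 94.3 (-1.51 ± 0.16, adjusted p = 5.7e-05). Pnpla2, adipose triglyceride lipase, read 162.1, 134.9 and 121.4 against 578.5, 356.6 and 364.1 (-1.504 ± 0.21, adjusted p = 0.000443). Mgll, monoglyceride lipase, read 318.5, 164.3 and 313.7 against 1041.5, 770.8 and 820.4 (-1.71 ± 0.25, adjusted p = 0.000655), and its other probe sets gave -1.49 and -1.43. Plin3, another coat protein, fell by 1.22 ± 0.15 (adjusted p = 0.000197). The groups did not overlap for these 4 genes, which follows largely from their choice by smallest p. Over the 16 genes this held for 6 lower and 1 higher, against 29.9% of all genes in either direction. Several of these genes are also known PPAR-alpha targets, so they are not independent of the list that was set aside, in which 27 of 48 fell. With the actin covariate 4 lipid droplet genes were called, all lower.

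Of 68 respiratory chain genes 1 rose, 4 fell and 63 did not pass (median -0.11, and with median centring 12 were called in all). The 5 calls became 3 without germ-free animal 1 or conventional animal 7, and 2 without germ-free animal 3 or conventional animal 8. Of 19 citric acid cycle genes 3 fell and 0 rose (median -0.15), with 1 call left without germ-free animal 3 and 1 without germ-free animal 4. Pdha1, the pyruvate dehydrogenase subunit that feeds the cycle, read 476.4, 488.7 and 516.7 against 810.3, 847.4 and 843.3 (-0.74 ± 0.10, adjusted p = 0.000512), and its other probe set gave -0.40. Cs, citrate synthase, read -0.71 ± 0.18, and did not pass when germ-free animal 3 (adjusted p = 0.0918), germ-free animal 4 (0.0729) or conventional animal 6 (0.0715) was left out. Of 22 glucose and glycogen genes 2 were higher and 1 lower (median 0.25), with 6 calls without germ-free animal 1 and 1 without germ-free animal 3. With median centring 0 were higher and 4 lower, and with the actin covariate 0 were higher and 1 lower (median 0.08), so the direction of this list is not settled. Pck2, the mitochondrial PEP carboxykinase, read 43.2, 32.8 and 20.8 against 136.4, 82.8 and 74.7 (-1.23 ± 0.22, adjusted p = 0.00239), and conventional animal 6 was again the highest. None of the 11 insulin response genes passed limma's test, and 0 had an unadjusted p under 0.05 (median -0.04). Apolipoprotein genes had a median of 0.21, with 4 of 23 higher and 1 lower. None of the 4 was called without germ-free animal 3, germ-free animal 4 or conventional animal 7, and with median centring 0 were higher and 2 lower. Purine and pyrimidine genes had 4 of 19 lower, with Gda, guanine deaminase, at 662.4, 653.4 and 674.5 against 1539.3, 1008.8 and 1371.3 (-0.94 ± 0.16, adjusted p = 0.00209; other probe set -0.38). Without germ-free animal 3 that list had 1 call, and without germ-free animal 4 it had 2.

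The 15 genes with the largest rises outside the set-aside lists differed widely in role. Stac3, known as an adaptor for calcium channels in muscle, read 1935.4, 2319.4 and 1518.5 against 27.2, 40.4 and 46.7 (5.16 ± 0.36, adjusted p = 3.55e-06). On the log2(signal + 16) scale this was the largest difference of any gene named here. Clca2, a chloride channel regulator, read 205.3, 285.7 and 286.8 against 17.2, 13.3 and 15.2 (3.13 ± 0.43, adjusted p = 0.000397), with a conventional signal under the filter value. Hsd17b2, which inactivates oestradiol and testosterone, read 2673.5, 3728.2 and 2267.5 against 272.9, 371.7 and 660.8 (2.75 ± 0.34, adjusted p = 0.00018). In every one of the 15 the groups did not overlap, as the rule required. Srebf1, a lipid synthesis factor, read 416.1, 1286.0 and 1120.2 against 171.4, 154.0 and 110.4 (2.44 ± 0.39, adjusted p = 0.00105), and its second probe set gave 2.23. Rtn4ip1, a mitochondrial oxidoreductase, read 256.3, 192.0 and 226.1 against 40.4, 35.0 and 34.7 (2.19 ± 0.33, adjusted p = 0.000706). Elapor1, Mtmr7, Aldh1b1, Marveld1 and Mmd2 rose by 2.44, 2.27, 2.09, 2.06 and 1.92, each with an adjusted p of at most 0.0025 by limma. The conventional signals of Elapor1 (16.3, 13.5 and 11.7) lay under the filter value, and its rise ran from 3.31 to 1.43 between offsets of 1 and 64. Marveld1 had a second probe set at 0.67.

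**Figure D4:**
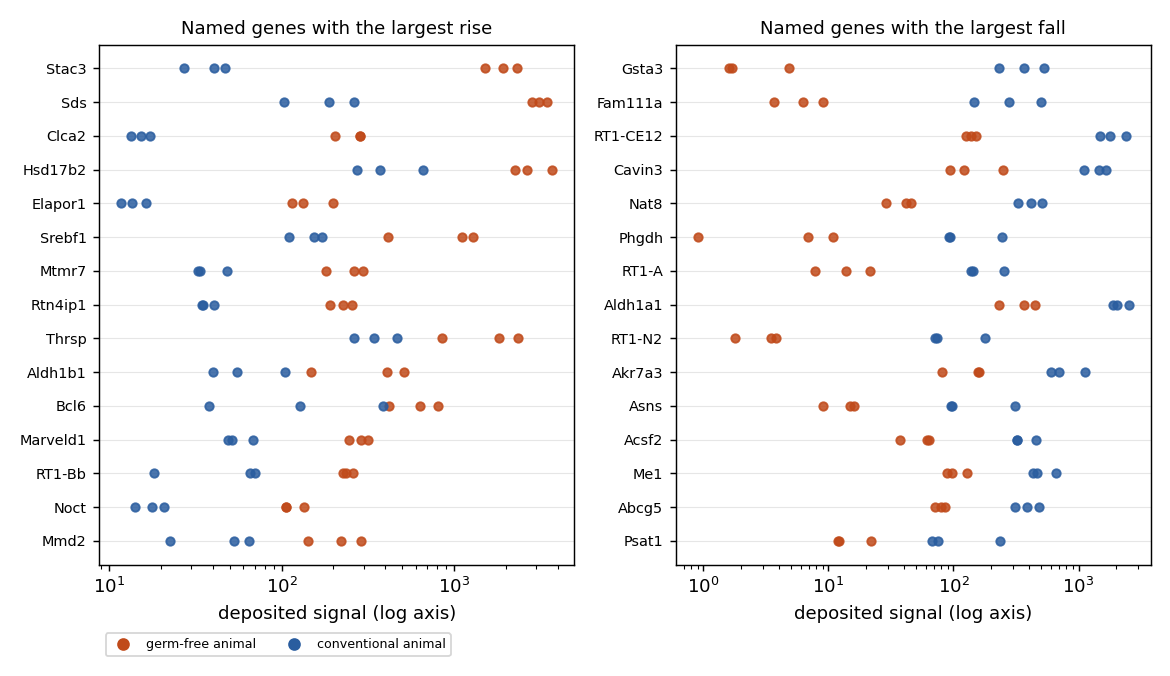
Deposited signal in each animal on a log axis for the 15 genes with the largest rise (left) and the 15 with the largest fall (right) among those that passed outside the set-aside lists and whose groups did not overlap. Red points are the 3 germ-free animals and blue points the 3 conventional ones.

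The 4 other leading rises were less stable. Bcl6, a repressor of transcription, read 418.0, 805.7 and 637.2 against 38, 387.2 and 127.9 (2.07 ± 0.52, adjusted p = 0.0187), and did not pass when germ-free animal 3 (0.0813), germ-free animal 4 (0.055) or conventional animal 6 (0.052) was left out. Thrsp, a gene of lipid synthesis, read 852.2, 2347.4 and 1828.8 against 265.1, 344.8 and 464.9 (2.09 ± 0.49, adjusted p = 0.0129), and 0.0674 with germ-free animal 3 left out. Noct, a gene linked to daily rhythms, read 106.3, 135.4 and 105.6 against 20.7, 17.7 and 14.2 (1.97 ± 0.41), lost with the actin covariate (0.0504). RT1-Bb, of MHC class II, gave 2.05 from its brightest probe set and -2.31 from its other one, so its direction is not settled, and its adjusted p rose to 0.0672 with germ-free animal 3 left out and to 0.0783 with conventional animal 7 left out.

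The 15 largest falls were led by Gsta3, a glutathione transferase that read 1.7, 4.8 and 1.6 in germ-free and 530.0, 229.9 and 367.1 in conventional livers (-4.32 ± 0.29, adjusted p = 3.55e-06). The germ-free signals lie under the filter value of 19.67, and Gsta3 belongs to a family of near-identical copies, so its signal may come from several copies. The Gsta3 difference ran from -6.69 to -2.66 between offsets of 1 and 64. The 18 glutathione transferases tested had 3 higher, 3 lower and 12 not past the test (median -0.01), with 3 calls without germ-free animal 3 and 3 without conventional animal 8. Gstm7 rose (773.8, 685.8 and 696.7 against 451.5, 421.4 and 323.2; 0.84 ± 0.13, adjusted p = 0.000802). Fam111a, a protease of the cell nucleus, read 3.7, 9.0 and 6.3 against 147.3, 497.1 and 278.1 (-3.71 ± 0.29, adjusted p = 6.08e-06). Its germ-free signals also lie under the filter value, as do its untreated and antibiotic means (4.83 and 3.43). Fam111a thus passed the filter only through the conventional group. Between offsets of 1 and 64 its difference ran from -5.29 to -2.29. Nat8, an acetyltransferase, read 41.5, 45.6 and 28.9 against 508.9, 328.5 and 417.6 (-2.98 ± 0.33, adjusted p = 0.000104). Aldh1a1, which makes retinoic acid from retinal, read 446.4, 365.6 and 230.4 against 2530.5, 1872.1 and 2047.4 (-2.61 ± 0.31, adjusted p = 0.000151). Acsf2, an acyl-CoA synthetase, read 61.4, 63.8 and 37.2 against 457.5, 321.1 and 319.7 (-2.45 ± 0.24, adjusted p = 3.16e-05). Abcg5, a subunit of a canalicular sterol transporter, read 71.1, 78.8 and 85.3 against 385.7, 311.3 and 480.3 (-2.10 ± 0.15, adjusted p = 3.93e-06).

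The lists of detoxification showed no single direction. Of 29 cytochrome P450 genes of families 1 to 3 and their partners 4 rose and 3 fell (24.1% called, against 13.2% of all genes, median 0.07). With median centring 2 rose and 4 fell, and there were 4 calls without germ-free animal 3 and 4 without germ-free animal 4. Cyp2j4 read 603.4, 423.9 and 375.4 against 1403.9, 1260.2 and 1227.1 (-1.47 ± 0.16, adjusted p = 7.94e-05), and Cyp2f4 read 536.5, 493.6 and 549.5 against 218.2, 257.0 and 334.4 (0.94 ± 0.14, adjusted p = 0.000705). Of 24 transferases for glucuronide, sulphate, acetyl and methyl groups 3 rose and 3 fell (median -0.02), with 9 more under the filter. Sult1c2, a sulfotransferase, rose from 80.8, 80.1 and 61.4 to 232.2, 345.9 and 287.9 (1.75 ± 0.21, adjusted p = 0.000151), and Acsm5, an acyl-CoA synthetase, fell by 1.46 ± 0.20 (adjusted p = 0.000455). Of 21 retinoid genes 2 rose and 3 fell, and besides Aldh1a1 the retinol dehydrogenase Rdh16 fell, from 912.7, 937.6 and 888.1 to 517.3, 591.5 and 475.4 (-0.78 ± 0.17, adjusted p = 0.00814). Of 14 steroid dehydrogenases and reductases 3 rose and 2 fell, and Hsd17b10, a mitochondrial member, read -0.58 ± 0.11 (adjusted p = 0.00389), opposite to Hsd17b2; with the actin covariate Hsd17b10 had an adjusted p of 0.0557. That list had 2 calls without germ-free animal 3 and 3 without germ-free animal 4 or conventional animal 6.

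Among plasma protein genes, of 21 complement genes 4 rose and 0 fell (median 0.24, and 0.14 with median centring). That is 19.0% called, against 13.2% of all genes. The shares called in the coagulation, acute phase and microbial sensing lists below were 5.26%, 14.3% and 10.5%. C6, of the membrane attack complex, read 1166.1, 899.7 and 1724.8 against 346.8, 318.0 and 358.2 (1.79 ± 0.27, adjusted p = 0.000706). C1s, of the classical pathway, read 3251.2, 3373.4 and 3422.9 against 2093.4, 2182.6 and 2490.9 (0.57 ± 0.09, adjusted p = 0.0011), and C8g rose by 0.55 ± 0.09 (adjusted p = 0.00187). Of 19 coagulation genes 1 rose (median 0.15, and 0.03 with quantile normalization), a call lost with median centring, with the actin covariate and when germ-free animal 1 or conventional animal 7 was left out. Of 21 acute phase genes 2 rose and 1 fell (median 0.16, and -0.0023 with quantile normalization), with 1 call left without germ-free animal 3 or 4. Il6r, the receptor for interleukin 6, read 546.4, 548.6 and 633.7 against 217.8, 376.2 and 349.1 (0.87 ± 0.20, adjusted p = 0.00988). Of 19 genes of lipopolysaccharide and microbial sensing 2 fell and 0 rose (median 0.22), with 9 more under the filter and 1 call left without germ-free animal 4 or conventional animal 6. Cd14, the co-receptor for lipopolysaccharide, read 597.4, 480.2 and 260.1 against 832.0, 1117.2 and 1303.2 (-1.30 ± 0.24, adjusted p = 0.00275).

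The MHC class I genes went in both directions, with 1 of 13 higher, 4 lower and 8 not passing (median 0.20). RT1-CE12 read 138.0, 152.5 and 125.6 against 1485.8, 2391.3 and 1794.4 (-3.60 ± 0.57, adjusted p = 0.00111), and RT1-S3 read 626.9, 851.7 and 839.5 against 301.3, 323.3 and 401.7 (1.14 ± 0.17, adjusted p = 0.00079). RT1-A had a difference of -2.65, RT1-N2 of -2.60 and RT1-T24-4 of -1.93. RT1-A did not pass with germ-free animals 1 (0.0581), 3 (0.0524) or 4 (0.0574) or conventional animal 7 (0.0744) left out, and neither did RT1-T24-4 (0.0564, 0.0533, 0.0711 and 0.0878), so the list then had 2 calls. RT1-N2 did not pass with any 1 of the 6 Sprague-Dawley animals left out (0.0517 to 0.107). The RT1 genes are near-identical copies that differ between rat strains and colonies, so a probe set may read several of them, or fail to read an allele, and a difference of colony cannot be told apart from the germ-free state. B2m, the light chain shared by class I molecules and named after its value was seen, did not pass (0.25 ± 0.10). Of 10 class II genes 1 rose, RT1-Bb, and 1 fell, with 0 calls without germ-free animal 3 and 1 without germ-free animal 4 or conventional animals 7 or 8.

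Most endothelial markers were higher in germ-free liver. All 20 on the array were tested, of which 12 were higher and 1 lower, and 7 did not pass (median 0.77, against 0.03 over all genes). As the list was chosen with earlier results of these data known, this count and median describe its members only. Eng, endoglin, a co-receptor of the TGF-beta family, read 230.0, 208.4 and 241.8 against 121.9, 126.9 and 96.7 (0.89 ± 0.12, adjusted p = 0.000359). Fcgr2b, the Fc receptor of sinusoidal endothelium, read 559.4, 513.2 and 360.8 against 121.8, 183.4 and 169.2 (1.498 ± 0.22, adjusted p = 0.000706). Tek, the angiopoietin receptor, read 131.0, 169.5 and 115.3 against 64, 64.8 and 59.6 (0.96 ± 0.15, adjusted p = 0.00102). For these 3 genes the groups did not overlap, which follows largely from their choice by smallest p. Over the 20 markers this held for 16 higher and 1 lower, against 29.9% of all genes in either direction. Stab2 and Lyve1, hyaluronan receptors of the sinusoid named after their values were seen, gave 1.17 ± 0.23 and 1.09 ± 0.24. Pecam1, present on endothelium throughout the body, read 59.1, 36.7 and 27.1 against 38.7, 37.5 and 23.6 (0.19 ± 0.21, adjusted p = 0.603). Cavin3, a caveolar coat protein, fell in contrast: 94.1, 120.5 and 250 against 1656.6, 1115.9 and 1447.5 (-3.15 ± 0.27, adjusted p = 1.3e-05). Of the caveolins, named after their values were seen, Cav2 rose by 1.80 ± 0.37 (adjusted p = 0.0058 by limma) and Cav1 read 0.19 ± 0.18 (adjusted p = 0.546).

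**Figure D5:**
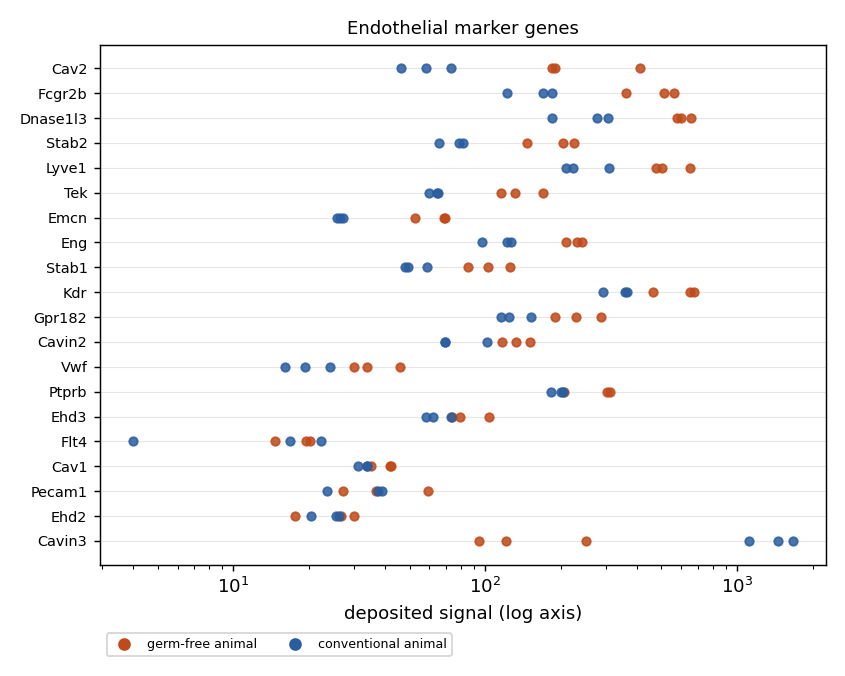
Deposited signal of 20 endothelial marker genes in each animal, on a log axis, with red points for germ-free and blue for conventional livers, ordered by difference. Most red points lie to the right of the blue ones, and Cavin3 at the foot lies the other way.

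The summed signal of the 20 endothelial markers ran from 3730 to 4736 in germ-free and from 3324 to 3435 in conventional livers, a sum that Cavin3 lowers in the germ-free group. Per animal the median over the markers, relative to the conventional mean, was 0.78, 0.81 and 0.64 in germ-free animals 1, 3 and 4 and -0.07, 0.07 and 0.03 in conventional animals 6, 7 and 8. The count that rose was 9 without germ-free animal 3, 9 without conventional animal 6, 9 without conventional animal 8 and 8 with the actin covariate, with 1 lower each time, and the median lay between 0.51 and 0.93 under all alternatives. In bulk liver, more or fewer cells of a type and more or less RNA per cell cannot be told apart. The difference from the antibiotic comparison passed for 3 of the 20, and the antibiotic median was 0.10. Markers of other cells had fewer calls. Of 13 macrophage markers 1 fell (median 0.03), with sums of 3697 to 4509 against 4073 to 5671. That was Clec4f, the Kupffer cell lectin, at 501.2, 637.0 and 487.6 against 691.2, 1082.6 and 811.2 (-0.64 ± 0.17), which did not pass with germ-free animals 1 (0.069) or 4 (0.0897) or conventional animals 7 (0.107) or 8 (0.0503) left out. Without conventional animal 6 there were 2 calls. None of the 9 hepatocyte, 15 stellate, 4 bile duct, 5 lymphocyte and 1 neutrophil marker passed by limma, with sums that overlap between the groups in each. At an unadjusted p under 0.05 there were 3 hepatocyte, 4 stellate and 0 bile duct, lymphocyte or neutrophil markers. Of 4 red cell markers 1 fell, Slc4a1 (-0.69 ± 0.19), which did not pass with any Sprague-Dawley animal except conventional animal 8 left out. No marker was at 0 in every animal, and the part of these cell markers in the other results was not tested.

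Genes of the BMP signal, which reaches hepatocytes from sinusoidal endothelium and sets hepcidin, moved in part. Bmp2, the ligand, read 172.0, 164.1 and 122.1 against 45.6, 76.1 and 61.8 (1.14 ± 0.21, adjusted p = 0.00344), and its second probe set gave 0.97. The feedback inhibitors Smad6 and Smad7 rose by 0.61 ± 0.13 and 0.68 ± 0.15, with other probe sets at 0.16 and 0.21, and Smad6 did not pass with the actin covariate (0.0838). Hepcidin itself, Hamp, named after its value was seen, read 4581.6, 4848.5 and 6149.5 against 4153.1, 4665.0 and 5055.9 (0.16 ± 0.15, adjusted p = 0.531). Aco1, the cytosolic aconitase that also binds iron-responsive RNA, read 688.1, 615.0 and 697.7 against 1170.2, 1072.6 and 947.0 (-0.66 ± 0.11, adjusted p = 0.00214). Of the 18 genes of the list 3 rose and 2 fell (median 0.105, and -0.0029 with median centring). Haem genes had 2 of 11 lower (1 without germ-free animal 3), of which Blvrb, biliverdin reductase B, read 226.0, 168.1 and 182.5 against 293.9, 511.0 and 391.9 (-0.97 ± 0.17, adjusted p = 0.00245).

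In the growth hormone list 4 of 15 rose and 1 fell (33.3% called, against 13.2% of all genes; median 0.30), with 3 calls without germ-free animals 3 or 4 or conventional animal 6. Igfals, the subunit that stabilises IGF-1 in blood, read 1185.2, 1652.6 and 1817.1 against 808.5, 560.3 and 618.7 (1.20 ± 0.18, adjusted p = 0.000738). Of 13 glucocorticoid genes 3 rose and 1 fell (30.8% called; median 0.23). Nr3c1, the glucocorticoid receptor, read 481.3, 700.7 and 491.5 against 319.1, 277.5 and 264.0 (0.91 ± 0.14, adjusted p = 0.00079), with a second probe set at 0.43. Errfi1, a brake on the EGF receptor, read 3701.5, 3996.2 and 4015.5 against 2356.1, 2430.6 and 2403.0 (0.70 ± 0.08, adjusted p = 0.000151). Fkbp5, a chaperone induced by glucocorticoids, fell instead: 103.5, 86.9 and 71.2 against 132.9, 250.7 and 227.7 (-1.06 ± 0.19, adjusted p = 0.00273; second probe set -0.74). The exact palindrome of the glucocorticoid response element, 15 letters long, was in 0 of the 7850 tested genes' windows. Of 13 immediate-early genes 2 fell, with 0 calls without germ-free animal 3 or conventional animals 6 or 8 and 1 without germ-free animals 1 or 4. Of 14 p53 targets 1 rose and 1 fell, with 0 calls without germ-free animals 1 or 3 and 1 without germ-free animal 4 or conventional animals 7 or 8. Of 16 cell cycle genes (20 more on the array under the filter) 1 rose and 1 fell, while with no filter 1 of 36 was higher and 7 lower. The 1 that rose was not called without germ-free animal 3 or conventional animal 8. Ccnd1, cyclin D1, read 117.1, 131.9 and 179.3 against 444.9, 417.8 and 347.8 (-1.41 ± 0.22, adjusted p = 0.000944), and its 2 other passing probe sets gave -0.96 and -0.93.

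The germ-free differences of the 30 leading genes were then set against the antibiotic differences in Han Wistar livers, which share no animal with them. The antibiotic difference passed for 2 genes, none of them among the 30, and 969 genes had an unadjusted p under 0.05. The difference between the comparisons passed for 552 of 9300 genes (5.94%), 475 of which also passed in the germ-free comparison (296 in all without germ-free animal 3 and 313 without untreated animal 2), and for 27 of the 30 genes, the exceptions being Thrsp, RT1-Bb and Noct. The actin 3' to 5' ratio ran from 3.62 to 6.17 over the Sprague-Dawley arrays and from 2.47 to 2.87 over the Han Wistar arrays. Because the strains, rearing and actin ratios differ as well as the treatment, what makes the comparisons differ cannot be told apart. For Stac3 the antibiotic difference was -0.77 against 5.16 in germ-free rats (difference 5.93, adjusted p = 5.07e-05). For Tat, named above but not among the 30, it was -0.38 against 1.74 (2.12, adjusted p = 9.06e-05). For Abcg5 it was 0.92, opposite in sign to -2.10 (difference -3.02, adjusted p = 1.43e-05). For Sesn2, also not among the 30, it was -0.60 against 1.81 (difference 2.41, adjusted p = 4.2e-05). The antibiotic difference had the same sign as the germ-free one for 15 of the 30 genes. The mean signal of untreated Han Wistar livers was near the germ-free mean for some leading genes and nearer the conventional mean for others. It was 4.83 for Fam111a (germ-free 6.33, conventional 307.5), 16.9 for Asns (13.3 and 167.9), 65.4 for Abcg5 (78.4 and 392.4) and 236.1 for Marveld1 (285.3 and 56.13). In contrast it was 578.9 for Akr7a3 (133.4 and 806.0) and 798.9 for Hsd17b2 (2890 and 435.1). Genes named above but not among the 30 were also of both kinds. The untreated mean was 228.9 for Eng (226.7 and 115.2), 86.57 for Fkbp5 (87.2 and 203.8) and 1587 for Hal (1776 and 778.1). It was 417.2 for Blvrb (192.2 and 398.9) and 234.2 for Hspb1 (42.53 and 186.5), nearer the conventional mean. An untreated mean near the germ-free one marks a level that is not particular to germ-free liver, and its cause was not tested.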

How the data were processed

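Liver RNA of 12 rats was measured on 1-colour Affymetrix arrays. The deposited signal intensity of each probe set was made by the authors with MAS5, per the submitters' processing notes, with no version given in the sources used here, and each array's 2% trimmed mean lay at 100.0, so it was used as deposited. Probe sets with a mean signal under the median of 19.67 were left out, and the probe set with the highest mean stood for each gene. Of 31042 probe sets other than 57 controls, 20826 had 1 gene symbol, 436 several and 9780 none.

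Values were fitted as log2(signal + 16) with limma 3.58.1 in R 4.3.3 (1 mean per group over 12 arrays, eBayes with a trend, 8 residual and 5.85 prior degrees of freedom, Benjamini-Hochberg over 9300 genes, threshold 0.05). The median standard error was 0.144. The number of arrays limits the precision. The fit was tested on simulated data. Lists are described by counts and medians with no set test, and the members and lists were chosen with earlier results of these data known. Named genes were the 15 highest and 15 lowest log2 changes among calls outside the 4 set-aside lists whose groups did not overlap, plus up to 4 members per list by smallest p; B2m, Cav1, Cav2, Gldc, Hamp, Lyve1, Nqo1, Pecam1, Psme1, Psph, Stab2 and the genes named for promoter elements were chosen after their values were seen. RefSeq windows (GRCr8) were matched by gene identifier or symbol. Alternatives were offsets of 1 and 64, filters, scalings, the 6 arrays alone, priors, weights, probe set rules, the actin covariate and leaving out each animal.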

Additional observations from a re-analysis of the deposited data

Results flagged for a closer look

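The difference between the germ-free effect in Sprague-Dawley livers and the antibiotic effect in Han Wistar livers passed limma's test for 552 genes. Among the 30 leading germ-free genes it passed for 27, with these differences (germ-free effect minus antibiotic effect, log2): Stac3 5.93, Sds 3.56, Clca2 4.64, Hsd17b2 3.25, Elapor1 3.02, Srebf1 2.67, Mtmr7 1.72, Rtn4ip1 2.05, Aldh1b1 2.07, Bcl6 4.45, Marveld1 2.15, Mmd2 2.43, Gsta3 -4.07, Fam111a -3.61, RT1-CE12 -4.64, Cavin3 -2.33, Nat8 -3.004, Phgdh -2.49, RT1-A -3.71, Aldh1a1 -2.95, RT1-N2 -3.97, Akr7a3 -2.13, Asns -2.31, Acsf2 -2.22, Me1 -1.64, Abcg5 -3.02 and Psat1 -1.78. The 30 genes were chosen by their germ-free difference, which is part of the difference tested, so the 27 are no separate evidence. The strains, rearing and actin ratios of the arrays differ as well as the treatment. None of these can be told apart from the difference between germ-free state and antibiotics.

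Probe sets with several gene symbols or none entered no comparison above. Of 3031 such probe sets that passed the filter, 368 passed the same test, 234 higher and 134 lower in germ-free liver.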

How the results depend on the processing

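No paired analysis was possible because germ-free and conventional animals share no animal numbers. Of 1226 genes called, alternatives gave 606 with the actin ratio as covariate (553 shared), 1901 with every probe set tested on its own, and 654 to 1236 without 1 animal, the lowest without germ-free animal 3. For the difference from the antibiotic effect (552 genes) they gave 869 with array weights, 230 with the actin covariate, 296 without germ-free animal 3 and 313 without untreated animal 2, with 296 to 600 over all left-out animals; the fit on 6 arrays alone cannot give that difference. Leaving out an animal leaves fewer samples; otherwise the cause was not tested. Median centring gave 1501 calls. RT1-Bb turned to -0.13 with the mean of its probe sets. Of 140 named genes that passed, 90 kept their call in every alternative in which they were tested and 50 lost it in at least 1. Of the list counts 1019 stayed within 1.5 times and 203 moved further.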
